A study of Caenorhabditis elegans with 2 samples.

Results

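The 31 small-subunit cytosolic ribosomal protein genes of Caenorhabditis elegans, called rps genes, were examined in chromatin immunoprecipitation sequencing (ChIP-seq) of tagged T26A5.8. They were chosen by name, as every protein-coding gene with the symbol rps and a number, and make up 31 of the 19973 protein-coding genes on the nuclear chromosomes. ChIP-seq recovers the DNA that lies near a protein and reports it as regions, each with a summit and a signal. The data came from 1 group with 2 biological replicates, numbered 3 and 4. Both were whole young adults of mixed sex from strain OP598, collected 63 h after synchronization as starved first-stage larvae. All worms carried the unc-119(tm4063) III allele and the transgene wgIs598, which encodes T26A5.8 with a GFP-FLAG tag at its C-terminus. Chromatin was sonicated and precipitated with an antibody to GFP. The labels do not give the promoter that drives the transgene, there was no second condition, and lists from control libraries were not analysed here. Signal from whole worms does not tell in which cells the protein lay on a gene.

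The small subunit of the cytosolic ribosome binds messenger RNA and holds the decoding centre, where codons are read. It is built of a single ribosomal RNA and a set of proteins that fold around it into a head, a platform and a body. In animals the genes for these proteins are strongly and coordinately transcribed, and their introns often host small nucleolar RNAs (snoRNAs), which guide the chemical modification of ribosomal RNA. The rps genes are compact, with a median length of 756 bp against 2027 bp for all protein-coding genes, and range from 307 bp for rps-28 to 1163 bp for rps-3. The next protein-coding gene lay within 500 bp of the end of 24 of the 31, and was transcribed in the same direction (tandem) at 18 and in the opposite direction (convergent) at 13. A summit past the end of an rps gene is therefore often near another gene too. The same counts over all protein-coding genes are not given here, so this is not shown to be particular to rps genes.

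Of the 31 rps genes, 9 had a summit of the authors' thresholded list, which holds 369 regions, in at least 1 of 3 windows. The windows were the start window (1000 bp upstream to 200 bp downstream of the gene start), the gene body and the end window (200 bp upstream to 500 bp downstream of the gene end). The sequences under 5 of these summits and under a strong summit that missed the thresholded list, at rps-23, are shown because they cover the kinds of place in which the summits lay, inside an rps gene, past its end and upstream of it. They are not a ranking by signal. By thresholded signal, the regions at rps-26 and rps-6 were stronger than all the thresholded regions shown except the one at rps-16. The sequences at rps-26 and rps-6 are not printed. Each holds the summit and 50 bp on either side from the RefSeq copy of the WBcel235 (ce11) genome, written 5′ to 3′ on the strand of the rps gene, with the 11 bases centred on the summit in capitals. The windows are chrV:15000437-15000537 (minus strand) for rps-16, chrIV:7083484-7083584 (minus) for rps-4, chrIII:6373994-6374094 (minus) for rps-13, chrIV:11109889-11109989 (minus) for rps-5, chrIII:4475606-4475706 (plus) for rps-1 and chrIV:12391298-12391398 (minus) for rps-23.
rps-16: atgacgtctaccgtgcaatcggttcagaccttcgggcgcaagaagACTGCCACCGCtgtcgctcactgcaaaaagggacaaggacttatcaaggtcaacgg
rps-4: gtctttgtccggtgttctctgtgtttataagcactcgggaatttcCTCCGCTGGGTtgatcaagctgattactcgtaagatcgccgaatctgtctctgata
rps-13: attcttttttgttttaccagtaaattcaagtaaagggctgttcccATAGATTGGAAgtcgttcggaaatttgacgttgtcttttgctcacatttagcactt
rps-5: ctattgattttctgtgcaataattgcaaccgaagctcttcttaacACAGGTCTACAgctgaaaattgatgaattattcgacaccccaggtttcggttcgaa
rps-1: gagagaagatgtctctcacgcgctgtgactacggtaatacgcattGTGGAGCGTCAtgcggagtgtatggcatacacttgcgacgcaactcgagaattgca
rps-23: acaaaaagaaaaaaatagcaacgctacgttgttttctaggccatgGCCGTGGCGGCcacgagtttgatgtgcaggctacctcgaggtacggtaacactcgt
The rps-16 window opens on the start codon of that gene and lies in its first coding stretch. The rps-4 and rps-5 windows lie past the ends of those genes, with their summits in exons of the next gene downstream, Y43B11AR.3 and pigk-1. The rps-13 window lies between 2 genes that end towards each other, and the rps-1 and rps-23 windows lie upstream of genes that start away from each other.

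In the start window, 4 of the 31 rps genes (12.9%, 95% exact binomial interval 3.63 to 29.8%) had a thresholded summit, against 0.806% of all protein-coding genes. In the end window, 5 of 31 (16.1%, 5.45 to 33.7%) had one, against 0.996% of all protein-coding genes. The gene body held one at 1 rps gene (3.23%, 0.0816 to 16.7%), against 0.891%. Over the 3 windows the count was 9 of 31 (29.0%, 14.2 to 48.0%), against 2.36%. The intervals cover the counting of genes only. By window, 4 rps genes had a summit at the start only, 5 at the end only and none at both, against 0.0350% of all protein-coding genes with one at both. Among 31 genes that share amounts to less than 1 gene, so the count of 0 is at the background. Because windows of neighbouring genes overlap, every one of these summits except that at rps-6 also lay in a window of another protein-coding gene. The counts are therefore not of summits that belong to rps genes alone. The shares over all protein-coding genes were counted in the same way.

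**Figure D1:**
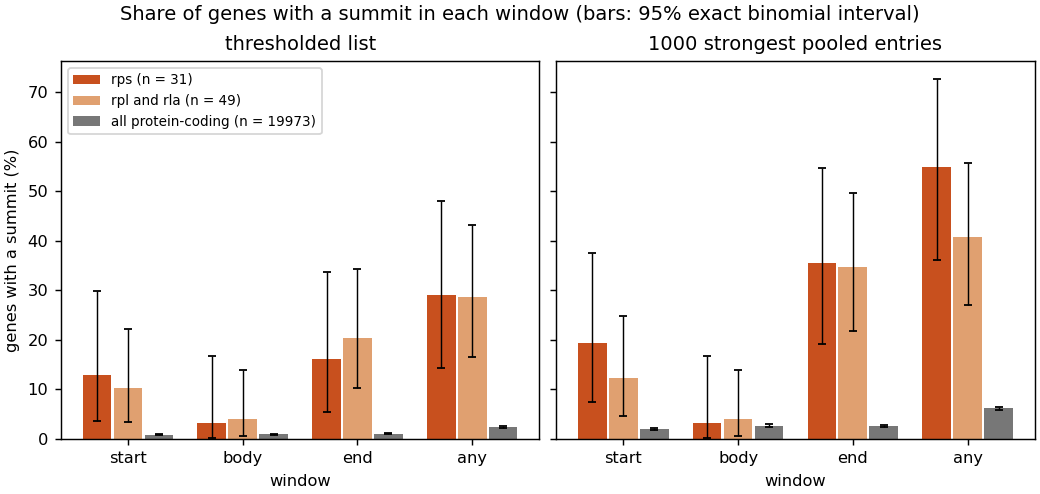
Share of genes with a summit in each window (y axis, percent), for 31 rps genes, 49 large-subunit genes (rpl and rla) and all 19973 protein-coding genes, with 95% exact binomial intervals, for the thresholded list (left) and the 1000 strongest pooled entries (right). In the end window the rps share is 16.1% on the left and 35.5% on the right, against 0.996% and 2.64% of all protein-coding genes.

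Signal is the authors' enrichment value and its scaling is not stated, so values were compared within a list only. Replicate values given beside a region are those of the strongest replicate entry with its summit within 200 bp of the summit of the region, and for the 9 thresholded regions that entry was at most 86 bp away. The pooled list, made from both replicates together, has 30000 entries including background, with a median signal of 26.8. Read depth is unknown.

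Summits at gene ends were found at rps-6, rps-4, rps-13, rps-5 and rps-22. They lay 53 to 221 bp past the end (median 162 bp). The strongest was at rps-6, whose product is phosphorylated by S6 kinase downstream of TOR signalling in animals. Its region on chromosome I, 13953244 to 13953603, had a thresholded signal of 124.0 (rank 104 of 369). In the replicate lists the signal was 63.3 in replicate 3 (rank 152 of 30000) and 74.3 in replicate 4 (rank 36). The summit lay 221 bp past the end of rps-6 in intergenic sequence, and the next gene downstream, Y71A12B.10, was 3995 bp away. This was the end summit with no other protein-coding gene whose windows held it.

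The remaining end summits each lay close to another gene. At rps-4, which encodes a protein of the body of the subunit, the region on chromosome IV, 7083487 to 7083577, had a thresholded signal of 111.9 (rank 147), with 49.7 in replicate 3 (rank 359) and 56.3 in replicate 4 (rank 130). Its summit lay 162 bp past the end of rps-4 and 182 bp inside Y43B11AR.3, which overlaps the end of rps-4 by 21 bp. At rps-13, another body protein, the region on chromosome III, 6373864 to 6374223, had a thresholded signal of 109.0 (rank 167), with 56.1 in replicate 3 and 62.8 in replicate 4 (rank 79). The summit was 53 bp past the end of rps-13 and 140 bp past the end of the convergent gene thoc-2, which encodes a subunit of the THO complex for messenger RNA export. In both replicates the entries at rps-4 and rps-13 were within the 369 strongest.

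At rps-5, whose product sits in the head near the exit site for transfer RNA, the region on chromosome IV, 11109759 to 11110118, had a thresholded signal of 103.5 (rank 197). The replicates differed here, with 62.5 in replicate 3 (rank 163) and 34.8 in replicate 4 (rank 688). The summit was 218 bp past the end of rps-5 and 79 bp inside pigk-1, which encodes a subunit of the enzyme that attaches GPI anchors. At rps-22, a body protein, the region on chromosome III, 1951353 to 1951712, had a thresholded signal of 88.6 (rank 355), close to the lowest of that list, 87.7. Its replicate signals were 43.7 in replicate 3 (rank 519) and 30.7 in replicate 4 (rank 1151), and the summit was 108 bp past the end of rps-22 and 7 bp inside F53A3.7. Of the 5 end summits, rps-22 therefore had the lowest signal in every list given here.

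Summits in the start window were found at rps-16, rps-26, rps-1 and rps-19, and only the first lay inside the gene. At rps-16, a head protein, the region on chromosome V, 15000307 to 15000666, had the highest thresholded signal of any rps gene, 135.2 (rank 80). Its replicate signals were 61.9 in replicate 3 (rank 177) and 59.7 in replicate 4 (rank 104). The summit was 54 bp inside the start of rps-16, in an exon, and so counted in both the start window and the gene body. It was also 164 bp past the end of fib-1, which encodes fibrillarin, the methyltransferase of box C/D snoRNA particles. That gene is on the same strand, 109 bp upstream of rps-16, so this region has the position of a gene-end summit for fib-1.

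At rps-26, whose product lines the exit channel of messenger RNA, the region on chromosome I, 14758786 to 14759145, had a thresholded signal of 128.1 (rank 93), with 67.7 in replicate 3 (rank 119) and 49.2 in replicate 4 (rank 205). The summit was 964 bp upstream of rps-26, near the edge of the window. It lay in an exon of tmem-107 and 176 bp past the end of dnj-12, which encodes a DnaJ co-chaperone. A snoRNA gene, F39B2.14, was 212 bp from the thresholded summit and 175 bp from the pooled one. With a start window of 500 bp upstream this region was no longer at rps-26.

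The summits of rps-1 and rps-19 lay between divergent genes. At rps-1, a platform protein, the region on chromosome III, 4475476 to 4475835, had a thresholded signal of 103.2 (rank 202), with 34.6 in replicate 3 (rank 1237) and 76.3 in replicate 4 (rank 32). By rank, the replicates were further apart here than at any other thresholded rps region. The summit was 262 bp upstream of rps-1 and 506 bp upstream of ifet-1, which encodes a translational repressor, and was covered by the unclassified non-coding RNA genes F56F3.10 and F56F3.11. At rps-19, a head protein whose human counterpart is mutated in Diamond-Blackfan anaemia, the region on chromosome I, 9625919 to 9626278, had a thresholded signal of 101.4 (rank 218), with 44.4 in replicate 3 (rank 490) and 44.0 in replicate 4 (rank 307). Its summit was 303 bp upstream of rps-19 and 142 bp upstream of hsr-9, so the nearer start was that of the neighbour.

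As a set, the 9 regions had thresholded signals from 88.6 to 135.2 with a median of 109.0, against a median of 105.6 over all 369, and 5 of the 9 were above 105.6. The strongest ranked only 80th. None had its summit within 200 bp of a tRNA, snoRNA or snRNA gene, with distances from 212 to 105415 bp. Of the 369 regions, 196 lay over 200 bp from such genes. In replicate 3, 6 of the 9 were among the 369 strongest entries, in replicate 4 it was 7, and 5 were so in both. The thresholded list was itself drawn from these replicates, so high replicate ranks follow in part from that choice. The same shares over all 369 regions are not given here.

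**Figure D2:**
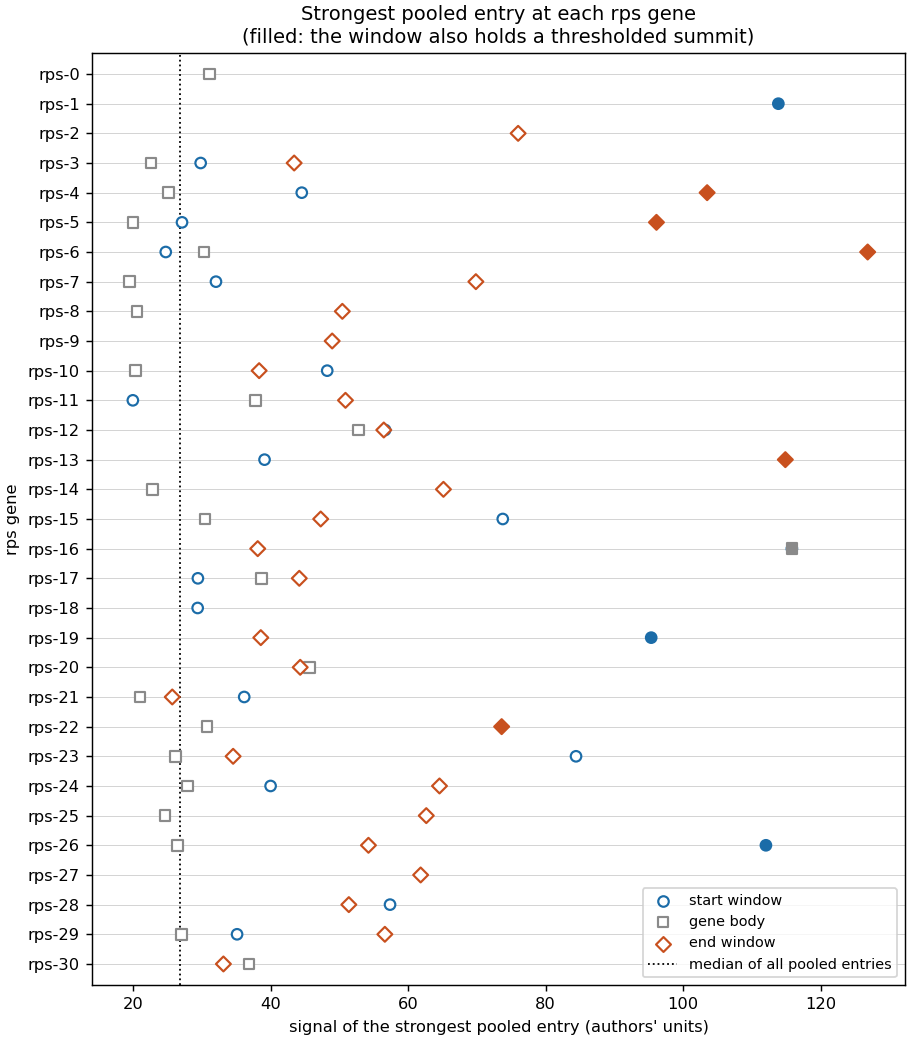
Signal of the strongest pooled entry (x axis, authors' units) in the start window, body and end window of each rps gene (rows), filled where the window also holds a thresholded summit. The dotted line marks 26.8, the median of all pooled entries, and every end-window value except that of rps-21 lies to its right. The rps-16 region is drawn at the same place for the start window and the body.

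The pooled list gave a wider view, since each of the 31 rps genes had at least 1 pooled entry (100%, against 65.8% of all protein-coding genes). In the end window 28 of 31 had an entry (90.3%), against 27.3% of all protein-coding genes. In the start window 21 had one (67.7%), against 32.8%, and in the gene body 23 (74.2%), against 52.0%. The genes without a pooled end entry were rps-0, rps-1 and rps-18. Replicate lists did hold end entries for these, at rank 4084 for rps-0 and rank 961 for rps-18 in replicate 3, and at rank 941 for rps-1 in replicate 4.

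By the median, pooled signals of rps genes were highest at gene ends. The upper quartile of the strongest entry was higher in the start window, at 73.8 against 66.3 in the end window. The strongest pooled end entry of an rps gene had a median signal of 52.8 over the 28 genes that had one, from 25.7 at rps-21 to 126.8 at rps-6, against a median of 30.8 over 5445 protein-coding genes with such an entry. For the start window the median was 39.99 over 21 rps genes, against 28.4 over all genes with an entry. For the gene body it was 27.03 over 23 rps genes, against 30.4, so body entries at rps genes were at about the level of the pooled list as a whole. The strongest entry of the gene was in the end window at 17 of 31 rps genes (54.8%), in the start window at 11 (35.5%) and in the body at 4 (12.9%), with the rps-16 region counted in both. Over the 13147 protein-coding genes with any pooled entry, those shares were 24.7%, 28.6% and 58.4%. The rps genes are shorter than most, which gives the body window fewer bases; the part of gene length in this was not tested.

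All 28 of the strongest end entries of rps genes were past the gene end, with quartiles at 156.5, 193.5 and 279.75 bp. The end window reaches from 200 bp before to 500 bp past the end, which limits this spread. Quartiles over all protein-coding genes are not given here, and the bins below carry the comparison. In the bin from 100 to 199 bp past the end there were 12 pooled summits at the 31 rps genes, or 38.7 per 100 genes, against 5.86 per 100 over all protein-coding genes. Among the 1000 strongest pooled entries the same bin held 5, or 16.1 per 100 genes, against 0.746. All protein-coding genes had their highest bin at the same place, at a much lower level. On the start side, 20 of the 21 strongest entries were upstream of the gene, with a median position 431 bp upstream. The start window holds 1000 bp upstream and only 200 bp downstream, so most positions in it are upstream. The matching share over all protein-coding genes is not given here. No pooled summit lay in the 200 bp just upstream of an rps start, where all protein-coding genes had 3.35 summits per 100 genes in the farther 100 bp and 3.29 in the nearer 100 bp. Over 31 genes such rates amount to few summits.

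**Figure D3:**
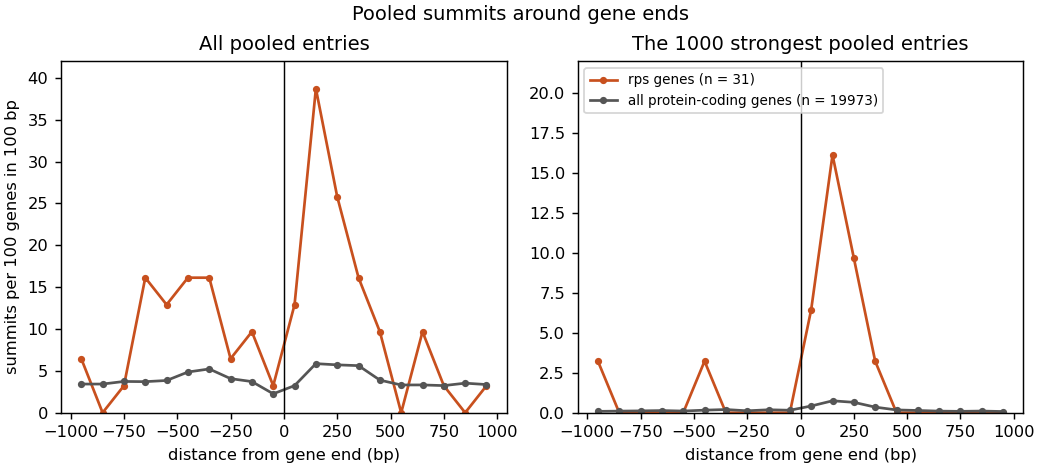
Pooled summits per 100 genes in bins of 100 bp (y axis) by distance from the gene end (x axis, bp, positive is downstream), for 31 rps genes and all 19973 protein-coding genes. The rps line peaks in the bin from 100 to 199 bp past the end, at 38.7 for all pooled entries (left) and 16.1 for the 1000 strongest (right), against 5.86 and 0.746 for all protein-coding genes.

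Among the 1000 strongest pooled entries, 17 rps genes had a summit in at least 1 window (54.8%, 36.0 to 72.7%), against 6.13% of all protein-coding genes. The end window accounted for 11 (35.5%, 19.2 to 54.6%), against 2.64%, the start window for 6 (19.4%, 7.45 to 37.5%), against 2.01%, and the body for 1 (3.23%), against 2.65%. The body share was close to that of all genes. No rps gene was in both the start and the end count, which is also at the background, since 0.190% of all protein-coding genes were. Of the 49 genes for large-subunit proteins, 3 (6.12%) were in both. The 17 comprised the 9 genes above and rps-2, rps-7, rps-14, rps-15, rps-23, rps-24, rps-25 and rps-27.

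Of those further 8 genes, rps-23, whose product reaches into the decoding centre, had the strongest entry, in its start window. The pooled signal was 84.4 (rank 345), with 45.8 in replicate 3 (rank 442) and 41.3 in replicate 4 (rank 383), whose summit was over 100 bp away. The entry was not in the authors' thresholded list on ce11. On the older build ce10, the entry matched to it by chromosome and signal, with no coordinates converted, was in the thresholded list. Its summit was 295 bp upstream of rps-23 and 239 bp upstream of dpm-3, which encodes a subunit of dolichol-phosphate mannose synthase. The other start-window gene was rps-15, a head protein, with a pooled signal of 73.8 (rank 524), 42.2 in replicate 3 (rank 592) and 31.8 in replicate 4 (rank 1021), 368 bp upstream.

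The other 6 had their entry in the end window. The gene rps-2, for a body protein close to the path of messenger RNA, had a pooled signal of 76.0 (rank 476), 29.4 in replicate 3 (rank 2313, at a summit 144 bp away) and 54.2 in replicate 4 (rank 143), 124 bp past the end. At rps-7, a body protein, it was 69.8 (rank 611), with 40.7 in replicate 3 (rank 676) and 30.8 in replicate 4 (rank 1129), 131 bp past its end and 40 bp past the end of the convergent ZC434.4. The rps-2 replicates thus stood far apart, those of rps-7 closer. At rps-14, a platform protein, the pooled signal was 65.1 (rank 752), with 35.2 in replicate 3 (rank 1154) and 32.7 in replicate 4 (rank 899), 386 bp past the end, and the next gene, acs-4, lies 8000 bp past that end. At rps-24, a body protein, it was 64.6 (rank 775), with 29.5 in replicate 3 (rank 2286) and 35.4 in replicate 4 (rank 648), 72 bp past the end and 21 bp upstream of T07A9.14. At rps-25, a head protein, it was 62.6 (rank 860), with 37.8 in replicate 4 (rank 513), 244 bp past the end. In replicate 3 the strongest entry within 200 bp, 39.7 (rank 748), had its summit 154 bp from the pooled one, at 398 bp past the end. The replicate 3 entry nearest to the pooled summit, at 193 bp past the end, had a signal of 16.96 (rank 15312). At rps-14, rps-24 and rps-25 none of these entries was among the 369 strongest of either replicate. At rps-27, which encodes a zinc-binding body protein, it was 61.8 (rank 900), with 33.2 in replicate 3 (rank 1433) and 28.8 in replicate 4 (rank 1465), 173 bp past the end, and the next gene, daam-1, lies 19561 bp past that end.

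**Figure D4:**
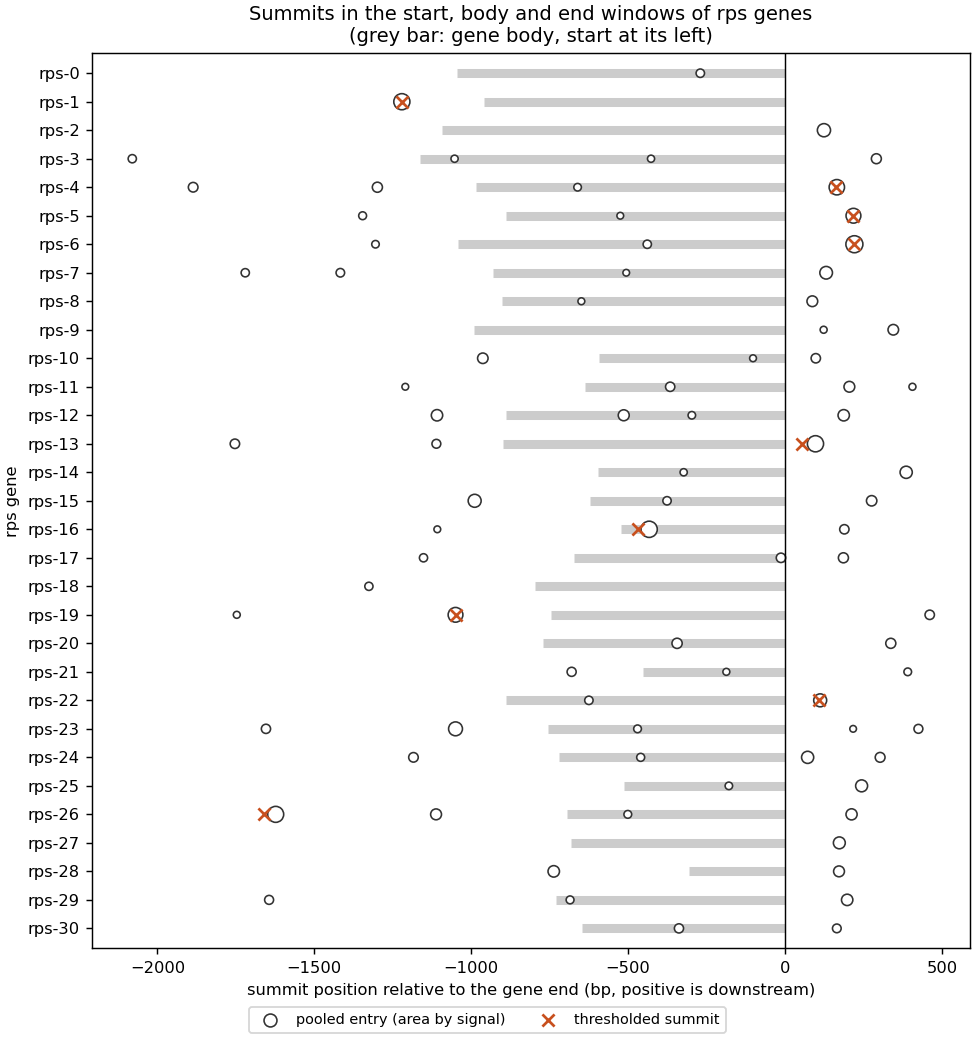
Position of pooled summits (circles, area by signal) and thresholded summits (crosses) in the windows of each rps gene (rows), as distance from the gene end (x axis, bp), with the gene body as a grey bar. The crosses at 5 genes lie 53 to 221 bp to the right of the gene end, and the large circles are to the right of the end or to the left of the bar, apart from rps-16.

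The remaining 14 rps genes had a strongest pooled entry between 29.4 at rps-18 and 57.4 at rps-28, at ranks 1126 to 11652. The strongest was in the end window at 6 of them, in the start window at 5 and in the body at 3. The values at rps-12 were alike in all 3 windows, with 56.6 at the start, 52.8 in the body and 56.5 at the end. At rps-0, homologous to the human laminin receptor protein, the only pooled entry was in the body, with a signal of 31.1 (rank 9891).

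By place in the subunit, 3 of 13 head proteins (rps-5, rps-16 and rps-19) and 6 of 18 body and platform proteins (rps-1, rps-4, rps-6, rps-13, rps-22 and rps-26) had a thresholded summit. Among the 1000 strongest pooled entries the counts were 5 of 13 and 12 of 18. By the direction of the next gene, 4 of 18 genes with a tandem neighbour and 1 of 13 with a convergent one had a thresholded end summit, and the median strongest end signal was 56.5 and 50.9. These groups are small and no difference between them was tested.

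The rps genes are hosts to 7 snoRNA genes in 5 of them, namely rps-4, rps-12, rps-13, rps-23 and rps-29. Thresholded summits were found at 2 of the 5 hosts, rps-4 and rps-13, both at the gene end, and at 7 of the 26 other rps genes. None was within 200 bp of a nested snoRNA gene. The nearest were 338 bp from Y43B11AR.7 in rps-4 and 371 bp from C16A3.11 in rps-13. The strongest pooled entry within 200 bp of any of the 7 had a signal of 52.8 (rank 1486), in rps-12. At rps-29, with B0412.6 and B0412.7, the strongest such entry was 27.03 (rank 14660), near the median of the pooled list. The microRNA gene mir-354 lies in rps-20 and had a pooled summit 185 bp away with a signal of 45.7 (rank 2506).

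The replicate lists were read beside the pooled one, which was made from both and is not independent of them. In replicate 3, 13 rps genes (41.9%) had one of the 1000 strongest entries in the end window, against 2.47% of all protein-coding genes. In replicate 4 it was 12 (38.7%), against 2.55%, and 6 genes had one in both. For the start window the counts were 7 in replicate 3 (22.6%, against 1.87%) and 5 in replicate 4 (16.1%, against 1.90%), with 4 in both. For the body they were 2 in replicate 3 (6.45%, against 2.71%) and 3 in replicate 4 (9.68%, against 2.88%), with 1 in both. The same window stood highest in each replicate, but fewer genes were shared than either list held.

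Across the 28 rps genes with an end entry in both replicates, the strongest signals had a Pearson's r of 0.45 on the log10 scale and a Spearman's rho of 0.35. These are descriptions across genes of 1 worm strain and 1 assay, and genes are not independent replicates. The coefficients compare each replicate's own strongest entry in the window, which need not be the same region. For the start window r was 0.54 and rho 0.43 over 16 genes, and for the body 0.70 and 0.33 over 11 genes. The strongest end summits of the replicates lay within 100 bp of each other at 15 of 28 genes, with a median distance of 89.5 bp, and the strongest start summits at 6 of 16, with a median of 108.5 bp. Body summits were the furthest apart, within 100 bp at 1 of 11 genes, with a median of 226 bp. The rank of a single rps gene thus moved between the replicates, as the plot of ranks shows.

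**Figure D5:**
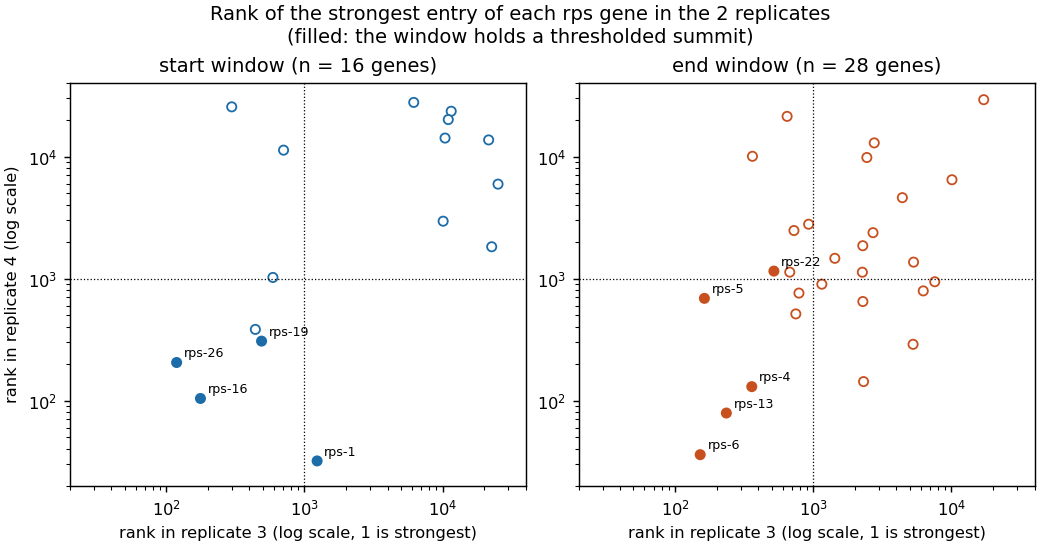
Rank of the strongest entry of each rps gene in replicate 3 (x axis) and replicate 4 (y axis), on log scales where 1 is strongest, for the start window (left, 16 genes) and the end window (right, 28 genes). Filled points are windows with a thresholded summit; of these rps-1 is past rank 1000 in replicate 3 and rps-22 in replicate 4, and dotted lines mark rank 1000.

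Other genes of translation gave a scale for these counts. Of 49 genes for large-subunit proteins (rpl and rla), 14 (28.6%, 16.6 to 43.3%) had a thresholded summit in any window, next to the 29.0% of rps genes. By window there were 5 at the start (10.2%), 2 in the body (4.08%) and 10 at the end (20.4%). The median strongest pooled end signal was 52.8 at rps genes and 54.9 at large-subunit genes. The intervals of both sets overlap widely. Neither of the 2 small-subunit genes with other names, ubl-1, which encodes a ubiquitin fusion, and rack-1, a scaffold on the head, had a thresholded summit or one of the 1000 strongest. None of 11 genes for subunits of eIF3, the initiation factor that binds the small subunit, had a thresholded summit, which allows a share of up to 28.49% (exact interval). Over all protein-coding genes the share was 2.36%, so a count of 0 in sets this small is at the background. Of the eIF3 genes, 2, eif-3.C and eif-3.J, had one of the 1000 strongest (18.2%), against 6.13% of all protein-coding genes. The median strongest end signal of the eIF3 genes was 38.7. Of the 3 box C/D snoRNP genes fib-1, nol-56 and nol-58, fib-1 had a thresholded summit, the one shared with rps-16. In this set 2 genes, fib-1 and nol-58, had one of the 1000 strongest pooled entries, that of nol-58 in its start window.

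Base composition and short motifs were read on both strands in the window of 50 bp on either side of each summit. The G and C content was 47.3% ± 7.24 (SD, n = 9) under the rps summits, against 47.1% ± 8.08 over all 369 thresholded summits, and ran from 35.6% at rps-13 to 59.4% at rps-19. At 400 bp to either side it was 42.1% ± 6.50 for rps genes, against 35.8% ± 6.55 for all thresholded regions. Over the 196 thresholded regions away from small RNA genes, it was 45.2% ± 8.13 at the summit and 36.7% ± 6.69 in the flanks. The step from flank to summit was thus smaller at rps genes than over the whole list, and less so against the 196. With 9 regions this difference was not tested. The motif CGAACC occurred under 1 of the 9 rps summits, at rps-5, where it is read as ggttcg on the printed strand (11.1%), against 15.2% of all thresholded windows, 8.16% of the 196 away from small RNA genes and 3.11% of all pooled windows. The motif ACCACT was under none of the 9, against 5.61% of the 196 windows away from small RNA genes, 18.4% of all thresholded windows and 4.51% of all pooled windows. The motif GCGCAC was also under none, against 7.65% of the 196, 7.32% of thresholded and 2.52% of pooled windows. Likewise CTGCGTC had no match at rps genes, against 5.10% of the 196, 3.52% of thresholded and 1.73% of pooled windows. GTTCGANNC, the B box inside tRNA genes, had no whole match either, against 4.08% of the 196, 13.3% of thresholded and 1.64% of pooled windows. The rps-5 window ends in gttcgaa, which begins this motif, and a match that runs past the window was not scored. Read on the other strand, CGAACC shares letters with GTTCGANNC, so the same bases can match both. With 9 windows, shares of this size leave few matches to be counted. Some of these motifs were chosen with earlier results of these data known. Their shares over thresholded windows are not independent of that choice, so no conclusion is drawn from the contrast with rps genes.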

How the data were processed

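ChIP-seq region lists for the 2 biological replicates, their pooled list and an IDR-thresholded list were taken as deposited, and reads were not used. Per the labels and the deposited notes, the replicate and pooled lists hold peaks and background and were the input to the irreproducible discovery rate (IDR) step, which keeps regions ranked alike in replicates. The sources used here do not name the aligner or the peak caller. Each deposited region has a signal, the authors' enrichment value of unstated scaling, used to rank and describe regions within a list, and a −log10 q-value from the authors' caller, not used. Read depth is unknown because the lists hold no counts.

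Genes came from Ensembl release 115 on WBcel235, the build called ce11, and names of non-coding genes from RefSeq. All regions ended within its chromosomes. A region was placed by its summit in the start window (1000 bp before and 200 bp after a gene start), the gene body or the end window (200 bp before and 500 bp after a gene end). Counts for the rps genes are set beside the share of all 19973 protein-coding genes. Intervals are exact 95% binomial intervals (Clopper-Pearson, scipy 1.17.1). No p-value was computed: regions of 1 group give no comparison between conditions. The members, gene lists, windows and some of the motifs were chosen with earlier results of these data known. Text names every rps gene with a thresholded summit, with 1 of the 1000 strongest pooled entries or with a nested small RNA gene, and others by range or where an entry was missing. The window counting was tested on simulated data. Lists on ce10 were used for their number of regions and, as an addition made after seeing the data, matched to pooled entries by chromosome and signal within 0.01, with no coordinates converted. Scripts ran in Python 3.11.15 with pandas 2.3.3.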

Additional observations from a re-analysis of the deposited data

How the results depend on the processing

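The following counts were recomputed, the rps genes with a thresholded summit in the start window (4), the gene body (1), the end window (5) and any window (9). An end window of 200 bp to either side gave 3 genes at the end. The 184 thresholded regions of highest signal gave 2 at the start, 3 at the end and 5 in any window. Counting any overlap of region and window in place of the summit gave 3 in the body. Giving each summit only to the nearest gene start or end left 2 at the start and 3 at the end, so 4 of the 9 summits counted here were nearer to a start or end of another gene. Using in place of the thresholded list the 369 strongest entries of 1 replicate, which leaves the other out, gave 3 to 4 genes at the start, 1 in the body, 5 at the end and 8 to 9 in any window. These were not the same genes. At the end, replicate 3 gave rps-4, rps-5, rps-6, rps-9 and rps-13, and replicate 4 gave rps-2, rps-4, rps-6, rps-8 and rps-13. At the start, replicate 3 gave rps-16, rps-26 and rps-28, and replicate 4 gave rps-1, rps-16, rps-19 and rps-26. The end summit of rps-22 was in neither. The other 27 planned values, single replicates included, and the 4 from the ce10 list, an addition made after seeing the data, stayed within 1.5 times the counts given. On ce10, where the thresholded list holds 609 regions, the search covered the 17 rps entries among the 1000 strongest pooled, of which 15 were matched (not those of rps-15 and rps-27). It gave 10 genes, rps-23 and the 9 above, a lower limit because the other 14 rps genes were not searched. The planned use of the ce10 lists for their number of regions gives no count of rps genes. No paired analysis was possible because the labels give a single group. Unknown read depth limits what a missing entry can show.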
